A study of Mus musculus with 44 samples.

Results

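The 7 genes that encode the subunits of the NMDA receptor, Grin1, Grin2a, Grin2b, Grin2c, Grin2d, Grin3a and Grin3b, were followed through RNA of translating ribosomes from the hippocampus of mice that had run in early life. They were chosen by symbol, as the 7 of 55335 annotated genes of the deposited count table whose Ensembl identifiers carry those names, and the rule itself uses no measured value. The NMDA receptor is a glutamate-gated cation channel that opens only when glutamate and a co-agonist, glycine or D-serine, are bound and the membrane is depolarised, and its calcium current starts the synaptic changes that hippocampal memory needs. Each receptor holds the obligatory glycine-binding subunit of Grin1 together with glutamate-binding subunits of the Grin2 genes or glycine-binding subunits of the Grin3 genes. The Grin2 subunits set the kinetics of the channel, and forebrain receptors are known to gain Grin2a subunits relative to Grin2b subunits as an animal matures.

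All mice were male Emx1-NuTRAP animals, in which Emx1-Cre, active mainly in excitatory forebrain neurons and also in neural progenitors and some astrocytes, switches on a tagged ribosomal protein, so that the RNA being translated in those cells can be pulled down (TRAP). Early-life exercise (ELE) mice had a running wheel from postnatal day 21 to 41, sedentary mice had none, and tissue was taken on day 42. In the separate isolation, TRAP was run on its own on the left or the right hippocampus, with 3 ELE and 3 sedentary libraries for each side. The other hippocampus of each mouse went to the isolation of nuclei, so left and right libraries came from different mice. In the simultaneous isolation of nuclei and ribosomes (SIT), both hippocampi were combined in one homogenate that also served for nuclei, and this gave 4 ELE and 4 sedentary libraries. The study compared 5 of those SIT libraries, 3 ELE and 2 sedentary, which are used here unless stated otherwise. The other 3, 1 ELE and 2 sedentary, stood apart and are given beside them. The 2 sedentary ones had 8.64% and 9.64% of counts from mitochondrial genes, against at most 0.523% in every other library, and all 3 had a summed level of interneuron markers of 1273 to 1363 CPM (counts scaled to a common library total) against at most 717 in the 17 libraries used.

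Library totals ran from 45895097 to 65767802 counts. The markers of excitatory neurons were present at a summed 13179 ± 917 CPM (SD, n = 12) after separate isolation and 12473 ± 699 CPM (SD, n = 5) after SIT. Astrocyte markers were also present, at 4581 ± 935 CPM and 3453 ± 638 CPM, so the RNA was not from neurons alone. In bulk RNA a lower level of a gene in each cell and fewer cells that carry it cannot be told apart.

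The 7 genes lie on 7 chromosomes of the GRCm38 build. Grin1 is at chr2:25291181-25319187, Grin2a at chr16:9567898-9995560, Grin2b at chr6:135713233-136173511, Grin2c at chr11:115249169-115267243, Grin2d at chr7:45831883-45878378 and Grin3a at chr4:49661611-49845744, all on the minus strand, and Grin3b is at chr10:79970715-79977190 on the plus strand. Grin3a holds Ppp3r2 and Gm12459 on its own strand within its span, and reads shared with them could not be assigned to it. Grin2d overlaps Gm22098 on its own strand, with the same limit. Over all 21 pairs of principal transcripts, the longest run of bases shared by any pair was 34, between Grin2b and Grin2c.

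All 7 genes were counted, but at very different depth. Per kilobase of annotated exon, the obligatory subunit gene Grin1 was highest after separate isolation, at 45.6 ± 3.96 CPM per kb (SD, n = 12). Grin2b followed at 29.4 ± 3.24, then Grin2a at 19.5 ± 2.13 and Grin2c at 17.8 ± 2.60 CPM per kb. Grin2c is known from cerebellar granule cells and, in the forebrain, from astrocytes and some neurons. The 5 cerebellar granule cell markers summed to 14.4 to 25.6 CPM in these 12 libraries, with Gabra6 at most at 0.101 and Cbln3 at most at 0.322 CPM and the rest from Cbln1, Zic1 and Zic2. Grin3a, whose subunit lowers calcium flux, stood at 3.02 ± 0.520 CPM per kb and Grin2d, known from interneurons and early development, at 2.25 ± 0.290 CPM per kb. Grin3b, known mainly from motor neurons, was at the edge of detection. It had 0 to 24 counts in the separately isolated libraries, 0 in 2 of the 12, and 0, 0, 0, 3 and 38 counts in the 5 SIT libraries. Where the count is 0, up to 3 counts are allowed by counting error alone.

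The ranges of Grin2a and Grin2c overlapped (16.2 to 22.5 and 12.4 to 21.3 CPM per kb), as did those of Grin3a and Grin2d, so the order within those pairs is not larger than their spread. Grin3a was nonetheless above Grin2d in 11 of the 12 separately isolated libraries and in 1 of the 8 SIT ones. Grin1, Grin2b and the group of Grin2a and Grin2c did not overlap with one another. These levels depend on the length chosen. Over the principal transcript alone, Grin1 rose to 104 ± 9.07 CPM per kb and Grin2b was 30.3 ± 3.35, because the exons of all Grin1 transcripts together cover 9700 bases and its principal transcript 4238. Over that length the ranges of Grin3a (3.95 to 6.54 CPM per kb) and Grin2d (2.30 to 3.48) no longer overlapped in the 12 libraries, and Grin3a was the higher in 12 of 12 separately isolated and 6 of 8 SIT libraries. Grin1 was first and Grin3b last in all 20 libraries under either length.

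**Figure D1:**
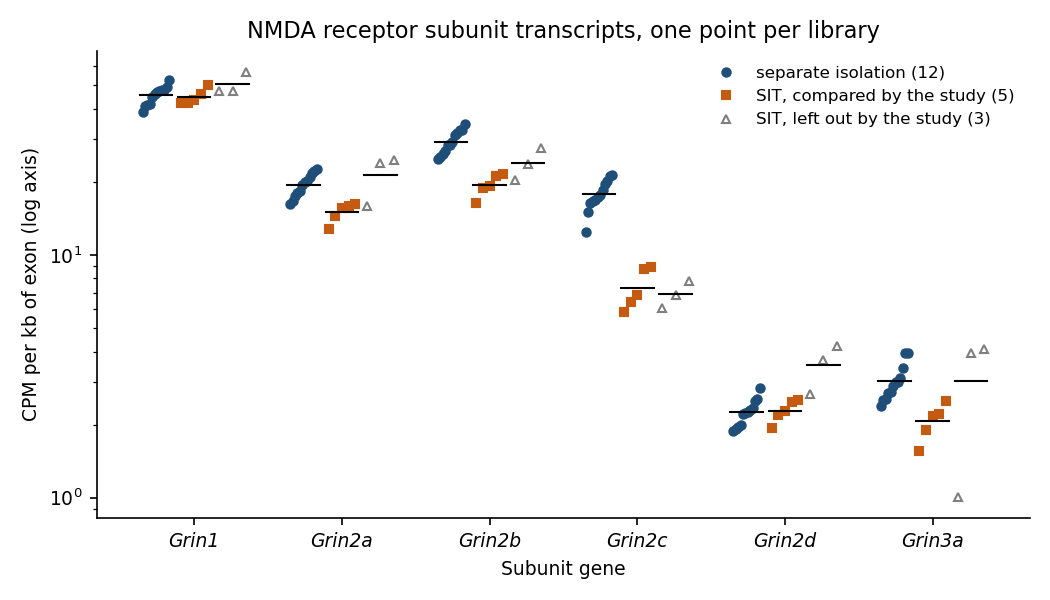
Level of 6 subunit genes in each library, in CPM per kb of exon on a log axis, with one point per library and a line at the mean of 12 separately isolated, 5 compared SIT and 3 left-out SIT libraries; Grin3b is not drawn because it has counts of 0. Grin2c shows the widest gap between the isolations, with all SIT points under all separately isolated ones, while Grin1 and Grin2d overlap between the 12 and the 5 libraries.

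As shares of the summed Grin2 level per kb, Grin2b made up 42.6% ± 2.29, Grin2a 28.3% ± 1.43, Grin2c 25.8% ± 2.50 and Grin2d 3.30% ± 0.569 after separate isolation (SD, n = 12). After SIT, Grin2b made up 44.1% ± 2.94, Grin2a 34.0% ± 1.52, Grin2c 16.8% ± 3.75 and Grin2d 5.20% ± 0.702 (SD, n = 5). In percentage points the share of Grin2c differed most between the isolations, and as a ratio that of Grin2d did.

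Across the 12 separately isolated libraries, the levels of Grin2a and Grin2b on the log2(CPM + 0.5) scale had a Pearson correlation of 0.73, and those of Grin1 and Grin3a one of -0.72. The other pairs among the 6 well-measured genes lay between -0.59 and 0.60. Among 9568 genes at 10 CPM or more, the patterns most like Grin1 were those of Slit1 (r = 0.95), Srrm3 (0.94) and Pcdh1 (0.91), and the patterns most like Grin2a were those of Prickle2 (0.94), Strn (0.91) and Prkcb (0.91). The patterns nearest to Grin2b were Sertad4 (0.94), Ncoa1 (0.91) and Cacna1d (0.90), and those nearest to Grin2c were Zmiz2 (0.88), Tjp1 (0.88) and Fam168a (0.87). Grin2d was closest to Cenpb (0.84), Svbp (0.84) and Rab15 (0.83), and Grin3a to Parm1 (0.89), Lrrtm3 (0.89) and Meaf6 (0.88). These correlations rest on the same 12 libraries and scaling, were picked as the highest of 9568, and are given as a description.

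The comparison of SIT with separate isolation asked whether taking nuclei and ribosomes from one homogenate changes the measured RNA. Among the 7 subunit genes, Grin2c, Grin2b and Grin3a were called lower after SIT in both exercise groups and Grin2a and Grin3b in sedentary mice, while Grin1 and Grin2d were not called in either. A gene was called at an unadjusted p under 0.05 and a fold change over 1.3 in edgeR's quasi-likelihood test, thresholds close to those that the study applied with DESeq2. In sedentary mice 5 of the 7 genes were called, all lower after SIT, beside 15.9% of all 18911 genes tested that were called in either direction and 10.2% called lower. In ELE mice 3 of the 7 were called, all lower, beside 13.2% of 18478 genes in either direction and 8.85% lower.

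Grin2c showed the widest difference. It was at 29.3, 32.2 and 43.9 CPM in the SIT ELE libraries and at 34.5 and 45.0 CPM in the SIT sedentary ones. In the separately isolated libraries the lowest value was 62.6, the median 88.2 and the highest 107 CPM. The groups did not overlap, and the 3 SIT libraries left out by the study, at 34.3, 39.5 and 30.5 CPM, were also below every separately isolated one. Grin2c fell by 1.21 ± 0.14 on the log2 scale (SE; edgeR adjusted p = 5.0e-04) in sedentary and by 1.31 ± 0.16 (adjusted p = 0.0011) in ELE mice.

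Grin2b was at 526, 535 and 478 CPM in the SIT ELE libraries and at 406 and 470 CPM in the SIT sedentary ones, against a lowest value of 615, a median of 717 and a highest value of 859 CPM after separate isolation. It fell by 0.74 ± 0.10 on the log2 scale (edgeR adjusted p = 0.0012) in sedentary and by 0.50 ± 0.11 (adjusted p = 0.013) in ELE mice. Its groups did not overlap either. Of the libraries left out, the ELE one was at 506 CPM and the 2 sedentary ones were at 687 and 587 CPM.

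Grin2a was at 285, 291 and 280 CPM in SIT ELE libraries and at 229 and 259 CPM in SIT sedentary ones, and ran from 291 to 404 CPM after separate isolation, with a median of 354. The highest SIT value lay just under the lowest separate one. It fell by 0.47 ± 0.10 on the log2 scale (edgeR adjusted p = 0.0086) in sedentary mice. In ELE mice the log2 difference of -0.34 ± 0.10 had an adjusted p of 0.049, but the fold stayed under 1.3 and Grin2a was not called.

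Grin3a overlapped between the isolations, with 19.1 to 30.7 CPM in the 5 SIT and 29.4 to 48.6 CPM in the 12 separately isolated libraries. It fell by 0.43 ± 0.14 (edgeR adjusted p = 0.063) in sedentary and by 0.61 ± 0.16 (adjusted p = 0.033) in ELE mice, and was called in both. Grin3b was called lower in sedentary mice, at -2.79 ± 1.17, on 0 and 3 counts against 6 to 18, with an edgeR adjusted p of 0.14. It had an adjusted p of 0.99 in ELE mice, where 1 SIT library held 38 counts and the others 0.

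Grin1 and Grin2d stayed on the other side of the threshold. The log2 difference of Grin1 was 0.03 ± 0.09 in sedentary and -0.08 ± 0.08 in ELE mice, and that of Grin2d was 0.04 ± 0.13 and 0.02 ± 0.15, with edgeR adjusted p of 0.63 or more for both genes.

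These calls in sedentary mice rest on the 2 SIT libraries that the study kept. With all 4 sedentary SIT libraries, Grin2c (log2 difference -1.31) and Grin2b (-0.45) were still called lower, Grin2d was called higher (0.46), and Grin2a (0.00) and Grin3a (0.01) showed no difference, because the 2 libraries left out held 441 and 428 CPM of Grin2a and 50.4 and 48.3 CPM of Grin3a. Grin3b was no longer called. Isolation, the use of 1 or both hippocampi and the first part of the mouse number changed together and cannot be told apart.

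**Figure D2:**
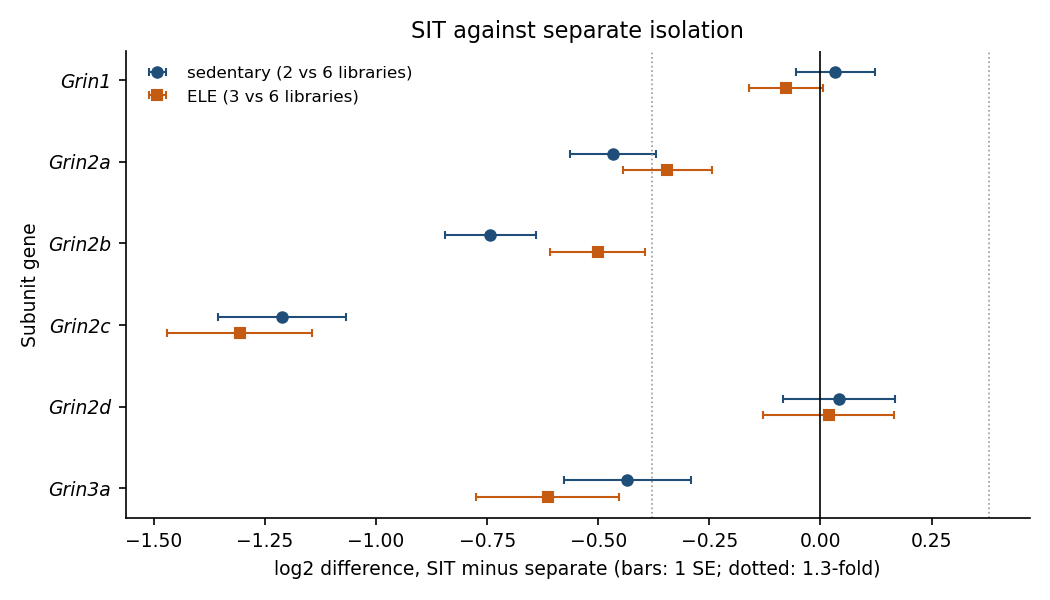
Difference between SIT and separate isolation for 6 subunit genes, on the log2 scale, with sedentary mice (2 against 6 libraries) and ELE mice (3 against 6), bars of 1 SE and dotted lines at a 1.3-fold difference. Grin2c lies farthest to the left in both, at -1.21 and -1.31, while Grin1 and Grin2d lie within 0.08 of 0.

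Other genes of the receptor complex were read from 4 fixed lists. Of 21 partners at the synapse and in transport, 7 were called lower and 0 higher after SIT in sedentary mice, and 6 lower and 1 higher in ELE mice, beside 10.2% and 8.85% of all genes called lower, with a median log2 difference of -0.17 and -0.24 beside -0.01 and -0.02 over all genes. The scaffold genes Shank1 and Shank3, which anchor the receptor complex to the actin cytoskeleton, fell by 1.42 ± 0.15 and 1.31 ± 0.14 on the log2 scale in sedentary mice (edgeR adjusted p of 3.0e-04 and 2.9e-04). The corresponding falls in ELE mice were 1.43 ± 0.14 and 1.25 ± 0.11. Dlgap2, Dlgap3, Shank2 and the transport motor gene Kif17 were called lower in both, the receptor tyrosine kinase gene Ephb2 was called lower in sedentary mice, and Lin7c rose by 0.42 ± 0.10 in ELE mice.

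Of 24 kinases, phosphatases and signal enzymes, 2 were called higher and 2 lower in sedentary mice, and 2 higher and 1 lower in ELE mice, shares near the 15.9% and 13.2% over all genes. Camk2a, the kinase that the calcium current activates and that docks to Grin2b, fell by 0.67 ± 0.14 in sedentary and 0.56 ± 0.10 in ELE mice (edgeR adjusted p of 0.0076 and 0.0046). Ppp3r1, the regulatory subunit of calcineurin, rose by 0.54 ± 0.07 and 0.52 ± 0.07 (adjusted p of 8.2e-04 and 0.0015). Camk2d rose by 0.80 ± 0.23 and Rasgrf1 fell by 0.44 ± 0.12 in sedentary mice, and Ppp3ca rose by 0.38 ± 0.07 in ELE mice. The median log2 difference of the list was -0.03 in sedentary and 0.09 in ELE mice.

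Of the 13 genes of co-agonist supply, 2 were called lower among 13 tested in sedentary and 4 among 12 tested in ELE mice, beside 10.2% and 8.85% of all genes called lower, and 0 were called higher. The sedentary share was near that background. Slc7a10, an astrocytic and neuronal carrier of D-serine and glycine, fell by 1.10 ± 0.13 and 1.17 ± 0.18 on the log2 scale (edgeR adjusted p of 5.0e-04 and 0.0030), and the glycine transporter gene Slc6a9 by 0.89 ± 0.16 and 0.67 ± 0.20. Phgdh and Slc1a4 were called lower in ELE mice, at -0.41 ± 0.17 and -0.68 ± 0.20. Of 14 genes linked to the maturation change from Grin2b to Grin2a, 2 were called lower in sedentary and 5 in ELE mice, beside the same 10.2% and 8.85%, and here too the sedentary share was near the background. Lrp8, a reelin receptor gene, fell by 0.69 ± 0.16 and 0.81 ± 0.15 and was called in both, as was the histone methyltransferase gene Ezh2, at -0.56 ± 0.25 and -0.64 ± 0.25. Reln, Vldlr and Dnmt3a were called lower in ELE mice, at -0.47, -0.41 and -0.43.

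Mitochondrial counts and markers of other cells moved with the isolation. Mitochondrial genes held 0.245% to 0.523% of counts in the 5 SIT and 0.0704% to 0.122% in the 12 separately isolated libraries, without overlap. The counts of markers called stand beside 15.9% of all genes called in either direction in sedentary and 13.2% in ELE mice. Of 7 astrocyte markers, 4 were called lower after SIT in sedentary and 3 in ELE mice, and Aldh1l1 ranged from 22.0 to 35.5 CPM after SIT and from 35.6 to 51.8 CPM after separate isolation. Of 10 interneuron markers, 7 were called higher in sedentary mice, and 0 were called higher and 1 lower in ELE mice, although their summed level overlapped (420 to 550 CPM after SIT, 392 to 717 CPM after separate isolation). Of 4 tested cerebellar granule cell markers 2 were called higher in sedentary mice (Cbln1 and Zic1) and 0 in ELE mice. In ELE mice 2 of 4 oligodendrocyte precursor markers (Pdgfra and Cspg4) and 1 of 3 CA1 markers (Wfs1) were called lower and 1 of 3 dentate granule cell markers (Prox1) higher, and in sedentary mice 1 of 6 microglia markers was called higher. Of 8 excitatory neuron markers, Camk2a was called lower in both groups, Nrgn higher in sedentary and Neurod6 higher in ELE mice. Exon length moved with it too. When genes were split into 5 equal groups by exonic length, in sedentary mice the longest group had a median log2 difference of -0.15 and the shortest 0.16, and in ELE mice the medians were -0.12 and 0.12. Grin1, Grin2a, Grin2b and Grin3a are in the longest group and Grin2c and Grin2d in the group next to it. The part of mitochondrial counts, cell makeup and length in the differences of the subunit genes was not tested.

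The subunit ratios were then compared, as ratios of counts per kb within a library, which do not depend on library scaling. Grin2a to Grin2b, the ratio that rises as forebrain receptors mature, was 0.751, 0.753 and 0.810 in the SIT ELE libraries and 0.781 and 0.765 in the SIT sedentary ones. After separate isolation it was 0.656, 0.649 and 0.628 in left ELE, 0.624, 0.651 and 0.632 in left sedentary, 0.672, 0.787 and 0.771 in right ELE, and 0.596, 0.670 and 0.660 in right sedentary libraries. The SIT values lay above all but the upper 2 right ELE values, and the SIT libraries left out were at 0.782, 0.889 and 1.01. The ratio was higher after SIT by 0.22 on the log2 scale, 1.16-fold, in an exact two-sided permutation test within exercise groups (p = 0.0026; adjusted p = 0.013 over 20 tests of 5 ratios in 4 comparisons).

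Grin1 to the sum of the Grin2 genes was 0.934, 0.925 and 1.09 in SIT ELE and 1.07 and 1.08 in SIT sedentary libraries, and ran from 0.538 to 0.758 after separate isolation with no overlap. The SIT libraries left out were at 1.24 in ELE and at 0.738 and 0.828 in sedentary mice, so the lowest of all 8 SIT values overlapped the separately isolated ones. The exact permutation test over the libraries used gave a log2 difference of 0.63 with p = 4.3e-04, the smallest value that the 2352 assignments allow (adjusted p = 0.0043). Grin2c to the same sum was lower by 0.61 on the log2 scale, also at p = 4.3e-04 in the exact test, and its groups did not overlap (0.127 to 0.220 and 0.224 to 0.308). Grin2d to that sum was higher by 0.69 (exact permutation p = 8.5e-04, adjusted p = 0.0057), with 0.043 to 0.062 after SIT and 0.025 to 0.044 after separate isolation. Grin3a to Grin1 was lower by 0.50 (exact permutation p = 0.0051, adjusted p = 0.020), with overlapping ranges of 0.037 to 0.058 against 0.045 to 0.094. The SIT libraries left out were at 0.018 in ELE and at 0.087 and 0.083 in sedentary mice, so that the 4 sedentary SIT values lay within the range of the separately isolated ones. All 5 ratios passed the adjusted threshold in the 17 libraries used. Over principal transcripts in place of all exons, Grin1 to summed Grin2 was 1.91 to 2.26 in the SIT libraries used. It was 1.13 to 1.58 after separate isolation on that length. Whether this ratio lies under or over 1 thus depends on the length chosen.

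**Figure D3:**
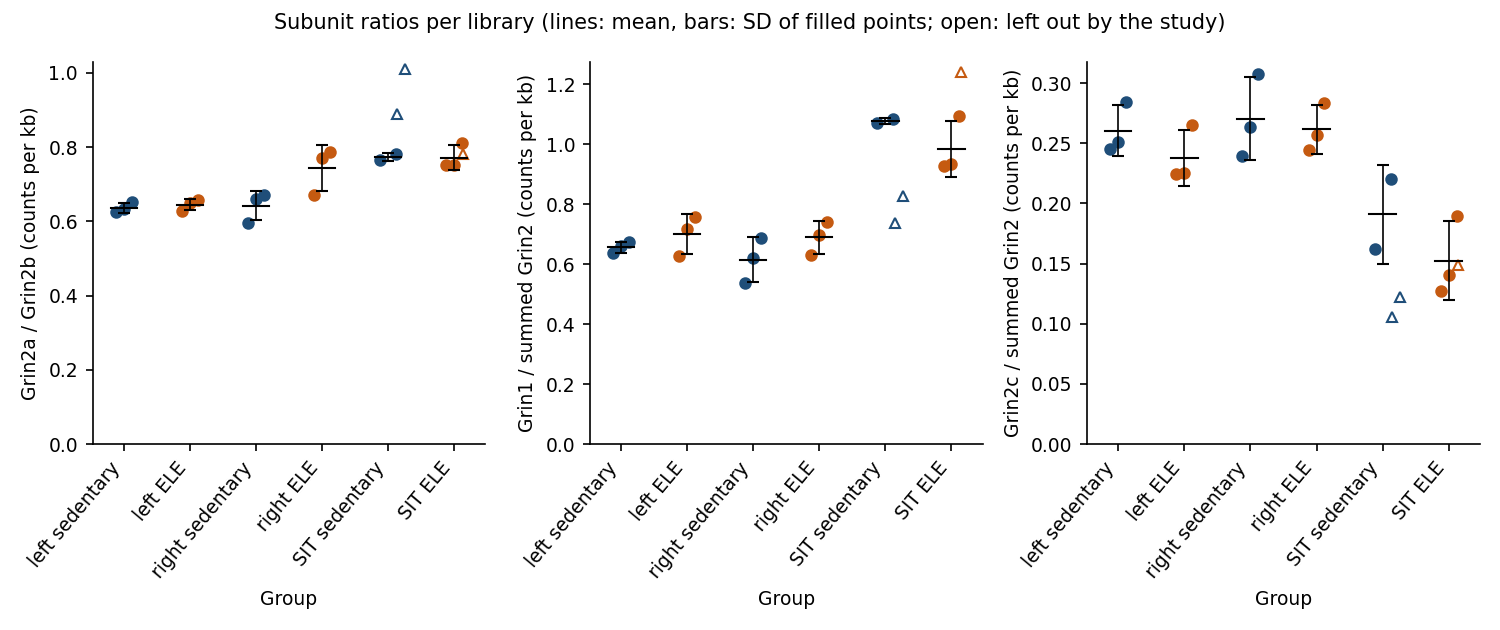
Ratios among subunit genes by group, as ratios of counts per kb, with filled points for the libraries used, open triangles for the SIT libraries left out by the study, lines at the mean of the filled points and bars of 1 SD. The 5 SIT libraries lie above the 12 separately isolated ones for Grin1 to summed Grin2 and below them for Grin2c to summed Grin2, and right ELE is the separately isolated group with the highest Grin2a to Grin2b.

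Whether ELE changed the subunit genes was asked within each isolation and side. In SIT, 0 of 6 tested members were called, beside 3.73% of 18238 genes. Grin2a and Grin2b were nonetheless higher in each of the 3 ELE libraries than in either sedentary one, as the values above show. Of the ELE mice, NT6.303 shares the first part of its number with both sedentary mice, NT6.305 and NT6.306. The ELE mice TG7.4.1 and TG7.4.2 have no sedentary mouse of their number series, so exercise and series partly changed together. The log2 differences were 0.22 ± 0.09 for Grin2a and 0.23 ± 0.10 for Grin2b, both with an unadjusted p past the threshold, a fold under 1.3 and an edgeR adjusted p of 0.90. Without the sedentary mouse NT6.305, which leaves 1 sedentary library, they were 0.14 and 0.13, and the unadjusted p no longer passed, nor did it without the ELE mouse NT6.303 or TG7.4.1. Markers of other cells moved in the same comparison, where 2 of 3 dentate granule cell markers (Prox1 at 0.46 and Dsp at 0.89) were called higher in ELE, and 3 of 5 choroid plexus markers (Folr1, Kl and Clic6, at -1.26, -0.55 and -0.94), 1 of 4 oligodendrocyte precursor (Cspg4), 1 of 10 interneuron (Pvalb) and 1 of 3 tested cerebellar granule cell markers (Cbln1) lower. Their part in the values of Grin2a and Grin2b was not tested. The ratio of Grin2a to Grin2b differed by -0.004 on the log2 scale (exact permutation p = 1.0, in a design whose smallest p is 0.10). With all 8 SIT libraries the differences were -0.24 ± 0.20 for Grin2a and -0.06 ± 0.16 for Grin2b, and the groups overlapped. Grin3a was then called lower, at -0.92 ± 0.27 (edgeR adjusted p = 0.42), against -0.30 ± 0.17 (adjusted p = 0.95) in the 5 libraries. In an interaction of exercise and isolation over the 17 libraries, added after the values were seen, 0 of 7 members were called, beside 4.66% of all genes tested. Over all 20 libraries Grin3a was called, at -0.78 ± 0.28 (edgeR adjusted p = 0.40), beside 8.05% of genes.

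In the left hippocampus, 0 of 6 tested members were called, beside 2.12% of 17750 genes. The largest of the log2 differences were -0.18 ± 0.12 for Grin2d and -0.17 ± 0.17 for Grin2c, both with an edgeR adjusted p of 0.96. Grin1 (0.05 ± 0.10), Grin2a (0.03 ± 0.12) and Grin2b (0.02 ± 0.12) were within 1 SE of 0. On this side 1 of 10 interneuron markers was called higher in ELE. In the right hippocampus, 1 of 7 members was called, Grin3a, beside 2% of 17570 genes. Over both sides together, 0 of 7 were called, beside 2.31% of 18810 genes, and the nearest was Grin1, at 0.12 ± 0.07 (edgeR adjusted p = 0.93).

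Grin3a was at 29.4, 33.1 and 33.5 CPM in right ELE and at 35.5, 48.4 and 42.1 CPM in right sedentary libraries, and the groups did not overlap. In the left hippocampus it was at 48.6, 31.0 and 36.7 CPM in ELE and at 38.2, 31.2 and 36.8 CPM in sedentary libraries, and they did. It fell by 0.39 ± 0.13 on the log2 scale in the right hippocampus and differed by 0.13 ± 0.16 in the left, which was not called. The difference between the sides was itself called, at 0.52 ± 0.22, and Grin3a was the 1 member of 7 called in that interaction, beside 2.21% of 18810 genes. Neither held after adjustment over all genes, where both had an edgeR adjusted p of 1.0. The call in the right hippocampus was lost without mouse TG7.3.1 (-0.33) or without mouse TG9.1.1 (-0.28), both values under the 1.3-fold limit.

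Choroid plexus markers moved with the same comparison. Their summed level was 19.9 to 45.9 CPM in right ELE and 35.7 to 1169 CPM in right sedentary libraries, 4 of 5 were called lower in ELE, beside 2% of all genes called in either direction, as were 1 of 4 tested endothelium and 1 of 5 tested microglia markers. Of 3 CA3 markers, Bok was called higher, at 0.40 ± 0.10. The defining choroid plexus marker Ttr was at 2.26 CPM or more in all 12 separately isolated libraries. Of the 10 interneuron markers, 1 was called in the right hippocampus, Slc32a1, higher at 1.15 ± 0.50, and Reln, at -0.38 ± 0.18, was not called. In the interaction of exercise and side 2 of the 10, Npy and Reln, were called higher, beside 2.21% of all genes, and Npy ranged from 0.767 to 297 CPM over the 12 libraries. Their part in the difference of Grin3a was not tested.

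**Figure D4:**
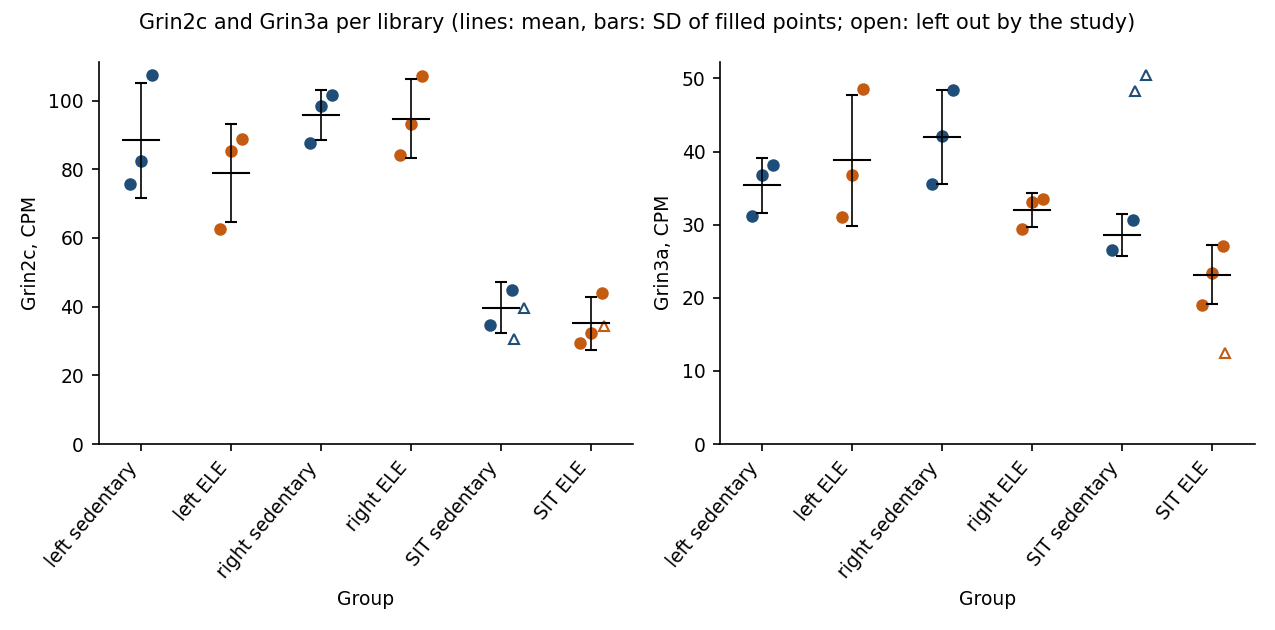
Level of Grin2c and Grin3a in each library by group, in CPM, with filled points for the libraries used, open triangles for the SIT libraries left out by the study, lines at the mean of the filled points and bars of 1 SD. Grin2c is at most 45.0 CPM in all 8 SIT libraries and at least 62.6 CPM elsewhere, and Grin3a is lower in right ELE than in right sedentary libraries without overlap.

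The other right-side values were 0.19 ± 0.09 for Grin1, 0.16 ± 0.10 for Grin2a, -0.05 ± 0.12 for Grin2b, -0.02 ± 0.11 for Grin2c and 0.06 ± 0.18 for Grin2d, and none of these 5 was called. Grin2a to Grin2b was higher in ELE by 0.11 on the log2 scale over both sides, with an exact permutation p of 0.05 that is not under the threshold (adjusted p = 0.17, smallest p 0.005). Within the right hippocampus the difference was 0.21 and all 3 ELE values exceeded all 3 sedentary ones, at p = 0.10, the smallest that 3 against 3 libraries allow in this exact test. Within the left it was 0.02 (exact permutation p = 0.50). The other 4 ratios had adjusted p of 0.23 or more between ELE and sedentary mice in either isolation. With all 8 SIT libraries, Grin3a to Grin1 was lower in ELE by 0.98 on the log2 scale, against 0.32 in the 5 libraries, with an unadjusted exact permutation p of 0.029.

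**Figure D5:**
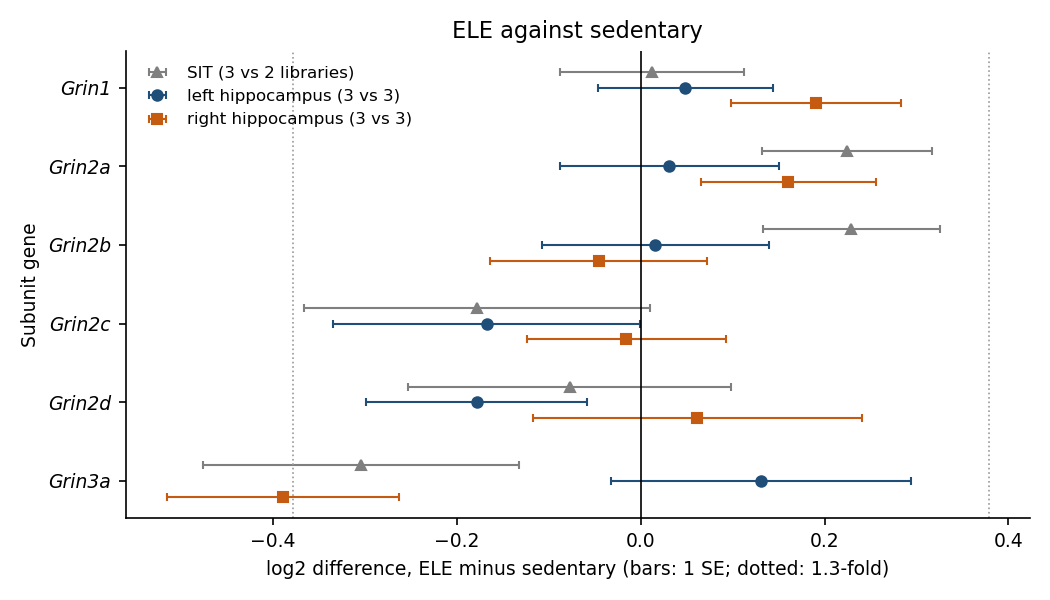
Difference between ELE and sedentary mice for 6 subunit genes, on the log2 scale, in SIT (3 against 2 libraries), left (3 against 3) and right hippocampus (3 against 3), with bars of 1 SE and dotted lines at a 1.3-fold difference. Only Grin3a in the right hippocampus passes a dotted line, at -0.39, and Grin2a and Grin2b in SIT lie near 0.22.

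Over the 4 lists of receptor-linked genes, the called members in SIT, 3 in all and near the 3.73% of all genes, were Lin7c (0.43 ± 0.15), Camk2d (-0.74 ± 0.24) and Phgdh (-0.38 ± 0.14), with 0 of 14 among the maturation regulators. In the left hippocampus and over both sides together 0 were called. In the right hippocampus Nos1, the neuronal nitric oxide synthase that is tethered to the receptor, was the 1 gene called, beside 2% of all genes, and fell by 0.63 ± 0.08 on the log2 scale (edgeR adjusted p = 0.12). The interaction of exercise and side holds the same right-side libraries. There Nos1 was called, at 0.63 ± 0.14, 1 of 24 signal enzymes, and Reln, at 0.57 ± 0.25, 1 of 14 maturation regulators. Both had an edgeR adjusted p of 1.0. With 0 of 21 partners and 0 of 13 genes of co-agonist supply called, the share over the lists was near the 2.21% of all genes. Over both sides, the genes with the smallest p in each list were the scaffold genes Homer1 (0.28 ± 0.08), Dlg3 (0.16 ± 0.05) and Dlg2 (0.19 ± 0.07), then Nos1 (-0.31 ± 0.07), Ppp3r1 (0.13 ± 0.05) and Csnk2a1 (0.12 ± 0.06). In the lists of co-agonist supply and maturation regulators they were Slc6a9 (-0.23 ± 0.14), Slc38a1 (0.08 ± 0.05), Shmt1 (0.26 ± 0.26), Lrp8 (0.26 ± 0.14), Nrf1 (-0.11 ± 0.07) and Eed (0.12 ± 0.08). All 12 were under the 1.3-fold limit, with edgeR adjusted p of 0.925 or more.

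Left and right were compared within each exercise group. In sedentary mice 0 of 7 members were called, beside 1.71% of 17670 genes, and in ELE mice 0 of 7, beside 1.36% of 17696 genes. Grin3a differed by -0.25 ± 0.13 (left minus right) in sedentary and by 0.27 ± 0.16 in ELE mice. Grin2a to Grin2b was lower on the left by 0.11 on the log2 scale, with p = 0.10 in an exact permutation test within exercise groups (adjusted p = 0.23). Within ELE mice the 3 left values, up to 0.656, lay under the 3 right ones, from 0.672, and within sedentary mice they overlapped. Of the receptor-linked lists, 0 genes were called in sedentary mice, and in ELE mice Nos1 was called at 0.64 ± 0.12 and Rest, a repressor of neuronal genes, at 0.57 ± 0.24, higher on the left. In the same comparison of ELE mice 3 of 5 choroid plexus markers (Ttr, Folr1 and Clic6, the latter pair at 3.08 and 3.66), 1 of 5 tested microglia markers (Cx3cr1) and 1 of 10 interneuron markers (Pvalb) were called higher on the left. In sedentary mice 1 of 10 interneuron, 1 of 4 endothelium and 1 of 4 tested cerebellar granule cell markers were called lower on the left. These counts stand beside the 1.36% and 1.71% of all genes above. The part of the markers in the side differences was not tested.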

How the data were processed

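TRAP-seq was analysed in 20 mouse hippocampal libraries. Per the labels and the methods of the study, the authors aligned reads to GRCm38 with STAR 2.7.3a, removed duplicates with Picard 1.87 and counted reads over genes with regard to strand, and the deposited values are raw counts per gene. The table's columns carry mouse numbers, which were tied to groups through the study's list of mice. Reading columns in sample order would give the opposite side for all 12 separately isolated libraries. Each result named for a side, and the sign of each difference between sides, rests on that list and would be exchanged under the other reading. The SIT libraries compared by the study were identified because the mean normalised count of 633 of 633 listed genes matched for 1 of 24 possible sets. Sequences of the subunit genes and the results of 2 lists of cell markers are not reported here. The wild-type table was not used, since its columns match no label.

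Counts were tested with edgeR 4.0.16 (TMM, filterByExpr, quasi-likelihood test, Benjamini-Hochberg adjustment) under R 4.3.3 over all genes, and DESeq2 1.42.0 was the alternative. CPM was taken over TMM-scaled library totals. Ratios of counts per kb of exon (union of GENCODE exons, GRCm38) were tested by exact permutation. The 7 members, the likeness rule (the 3 highest Pearson correlations) and the gene lists (named where called and, over both sides, where no gene was called, the 3 with the smallest p) were chosen with earlier results of these data known. In counts simulated for the right hippocampus (3 against 3, 17570 genes), 72% of 1.5-fold and 75% of 2-fold changes were called. In those for the sedentary isolation comparison (18911 genes) 58% and 72% were. Of genes simulated without a change, 3.17% were called in the right hippocampus and 2.63% in the isolation comparison. The 3.17% is above the 2% of all genes called in the measured right hippocampus. By adjusted p, 24% of 1.5-fold and 56% of 2-fold changes were found in the right hippocampus, and 26% and 55% in the isolation comparison. No pair of libraries within a group agreed within sampling noise (chi-square per gene of 22.2 or more). The p-values measure the spread between these libraries. Intervals and floors cover counting error only.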

Additional observations from a re-analysis of the deposited data

Results flagged for a closer look

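The effect of exercise on Grin3a differed between the hemispheres by a test of the difference itself. The interaction was 0.52 ± 0.22 on the log2 scale (edgeR adjusted p = 1.0), from a difference of 0.13 in the left and -0.39 in the right hippocampus. It was the 1 member of 7 past the threshold, and it was lost in 5 of the 12 fits that leave out 1 library, where the value ran from 0.33 to 0.65.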

How the results depend on the processing

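Grin3b had too few counts to be tested in SIT or in the left hippocampus. DESeq2 in place of edgeR, other size factors and no filter on low counts left each count of members called within 1.5 times of the value given. The number of members called between ELE and sedentary mice in SIT was 1 with all SIT libraries and 1 with the NT6 mice only. With adjusted p as the call it was 0 in the right hippocampus, 0 in the interaction and 3 between isolations in sedentary mice (Grin2a, Grin2b and Grin2c, all lower). All SIT libraries gave 3 other calls in part there, with Grin2c and Grin2b lower and Grin2d higher. With single libraries left out the number of members called ran from 0 to 1 in SIT, in the right hippocampus, in the interaction and between sides in ELE mice, and from 3 to 5 between isolations in sedentary mice. With all SIT libraries, the sedentary isolation difference turned from lower to 0.0032 for Grin2a and 0.0081 for Grin3a. The difference of Grin3b between isolations in ELE mice ran from -6.58 to 0.63 with single libraries left out and was -6.58 without NT6.303, the one SIT library there with any of its counts. The other causes were not tested.

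On the log2 scale, with single libraries left out, Grin2a to Grin2b ran from 0.088 to 0.15 between ELE and sedentary mice and from -0.14 to -0.086 between sides, and Grin1 to summed Grin2 from 0.083 to 0.17 between ELE and sedentary mice. Each passed p under 0.05 in part of those exact tests. Grin3a to Grin1 passed in SIT with all libraries, at -0.98. Over principal transcripts the levels in CPM per kb were 104.3 and 102.8 for Grin1, 23.9 and 18.4 for Grin2a, 2.75 and 2.80 for Grin2d and 4.99 and 3.41 for Grin3a after separate isolation and SIT. Over all annotated exons, the SIT means with all 8 libraries were 17.4, 2.75 and 2.42 CPM per kb for Grin2a, Grin2d and Grin3a.

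No paired analysis by the labels' replicate number was possible because the columns carry none. A replicate block on the first part of the mouse number was run in its place. Each of TG7.3, TG9.1 and TG9.2 gave a library to every separately isolated group. The paper says that litters were divided between wheel and standard cages, but nothing ties these series to litters. Deviations from the group means correlated above 0.1 in 10 of 18 same-series library pairs (median 0.12, lowest -0.16), and 22 of 36 checks were best with the own series. With the block, Grin3a was still called in the right hippocampus (-0.38), and Grin1 to summed Grin2, 0.13 higher in ELE mice, had an exact permutation p of 0.028, not adjusted over the 20 tests.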
